A study of Mus musculus with 6 samples.

Results

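Gas5, Snhg1, Snhg3, Snhg8 and Snhg12 are snoRNA host genes, long RNA genes that carry small nucleolar RNAs in their introns. They were followed through every probe set that the platform annotation pairs with 1 gene, that gene being 1 of these 5. They are 5 of 18193 genes named in this way on the array, and they were read by 12 of its 34945 probe sets with 1 gene: 4 for Gas5, 5 for Snhg1 and 1 each for Snhg3, Snhg8 and Snhg12. The cells were Ba/F3-N, a mouse bone marrow-derived line transformed with oncogenic NRAS of the G12D form, which all samples carry. One group of 3 samples received 1 µM N-arachidonoyl dopamine (NADA), a lipid made of arachidonic acid and dopamine, for 12 hours, and the other group of 3 received an equal volume of vehicle for the same time. The labels do not say whether the line is a clone or whether the samples came from separate cultures, and the p-values therefore cover only the variation among these 6 arrays, part or all of which could be technical.

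A snoRNA host gene is transcribed as a long precursor and spliced. The snoRNAs are cut out of the removed introns, bound by box C/D or box H/ACA proteins, and guide the methylation or pseudouridylation of ribosomal and spliceosomal RNA. The joined exons often hold no long reading frame, and the spliced Gas5 RNA is known to be unstable in growing cells because translating ribosomes expose it to nonsense-mediated decay. Many such hosts, Gas5 among them, begin with a 5' terminal oligopyrimidine (TOP) tract, a feature shared with mRNAs of ribosomal proteins that ties their translation to mTOR signalling. Gas5 was named as growth arrest-specific transcript 5, and its RNA can bind the glucocorticoid receptor.

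In the RefSeq gene table of GRCm38.p6, all 5 are long noncoding RNA genes. Gas5 (gene ID 14455, chromosome 1) and Snhg1 (83673, chromosome 19) each enclose 8 snoRNA genes, Snord47 being among those inside Gas5 and Snord22 among those inside Snhg1. Snhg3 (399101, chromosome 4) encloses 2, Snora73a and Snora73b. Snhg8 (69895, chromosome 3) encloses 1, Snora24, and Snhg12 (100039864, chromosome 4) encloses 4, Snora16a, Snora44, Snora61 and Snord99. The 5 starts below are shown because members are set against TOP mRNAs below, and a TOP tract is defined by the first bases of the transcript. Each line holds 50 bases before and 50 bases from an annotated start, 5' to 3' on the strand of the gene, from RefSeq (GRCm38.p6). Capitals mark exact matches, on either strand, to any of 4 short motifs. The first is CTTTC, a pyrimidine stretch of the TOP kind. The second is the TATA box, searched with the letters TATAAA. The third is the core bound by ETS family factors, searched as CGGAAG, and the last is the E-box known to be bound by MYC, searched as CACGTG.
Gas5, chr1:161035116-161035215, + strand: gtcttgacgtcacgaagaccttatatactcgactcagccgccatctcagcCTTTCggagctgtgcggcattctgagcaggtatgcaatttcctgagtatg
Snhg1, chr19:8723437-8723536, + strand: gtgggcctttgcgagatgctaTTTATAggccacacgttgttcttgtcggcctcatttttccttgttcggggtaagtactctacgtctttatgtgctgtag
Snhg3, chr4:132353637-132353736, - strand: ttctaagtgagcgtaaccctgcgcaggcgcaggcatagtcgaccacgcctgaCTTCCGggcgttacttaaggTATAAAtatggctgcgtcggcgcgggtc
Snhg8, chr3:123508287-123508386, - strand: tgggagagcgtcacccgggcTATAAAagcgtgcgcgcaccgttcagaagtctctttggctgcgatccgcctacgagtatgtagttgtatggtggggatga
Snhg12, chr4:132308628-132308727, + strand: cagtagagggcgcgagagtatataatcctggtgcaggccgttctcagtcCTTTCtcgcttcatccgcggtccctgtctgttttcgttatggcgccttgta
CTTTC stands at the start itself in Gas5 and begins 1 base before it in Snhg12. The transcript start of Snhg8 reads ctctttgg, which opens with an unbroken pyrimidine stretch that the exact letters CTTTC miss. Absence of these letters therefore does not show that a TOP start is lacking. Of all 32851 windows of this length in the table, 23.4% hold CTTTC anywhere in the window on either strand. The share with CTTTC at the start itself was not counted. TATAAA or its reverse TTTATA is found in Snhg1, Snhg3 and Snhg8, and in 4.94% of all windows. The match begins at base -30 from the start in Snhg8 and, as TTTATA, at base -29 in Snhg1. In Snhg3 it begins at base 23, after the start. CGGAAG is found on the reverse strand in Snhg3, where it reads CTTCCG, and on the forward strand at a second annotated Gas5 start that is not shown. It is found in 9.12% of all windows. CACGTG was found in no member window and in 2.92% of all windows. The 4 motifs do not overlap each other in these windows, and a match is a description of letters, not of a bound site.

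Intensities are the authors' deposited values on a linear scale, with array medians between 37.95 and 39.11. Correlations across probe sets ran from 0.9962 to 0.998 within a group and from 0.9341 to 0.9372 between the groups. Bacterial poly-A control RNAs, spiked in ahead of the labelling step, averaged 8.02 ± 0.18 on the log2 scale (SD, n = 3) with NADA and 7.51 ± 0.02 with vehicle. The hybridization controls, added after labelling, averaged 10.1 ± 0.051 with NADA and 9.93 ± 0.096 with vehicle, a difference of 0.15. Setting each array to the poly-A controls, below called poly-A scaling, lowers every log2 fold change by 0.51. It moves the median over all tested probe sets from -0.01 to -0.52. The control probe sets at the 3' end of Actb exceeded those at its 5' end by 1.06 ± 0.05 (log2) with NADA and by 0.67 ± 0.04 with vehicle, and for Gapdh the difference was -0.07 ± 0.06 and -0.22 ± 0.03. None of these groups of values overlapped. Of the 10 pro-B cell markers on the array 2 (Cd79b and Igll1) lay above the dim limit of 39.01 used for testing, while Cd79a, Ebf1, Pax5, Rag1 and Rag2 lay below it. Of 7 markers of interleukin-3 responsive progenitors 4 lay above it (Ptprc, Il3ra, Csf2rb and Csf2rb2), and their list summed to 13510 to 13600 in NADA and 5757 to 5990 in vehicle. Among markers of other cell types, 2 of 4 T cell, 2 of 5 monocyte and granulocyte, 1 of 4 mast cell, 2 of 3 erythroid and 1 of 5 fibroblast and epithelial genes were above it. The part of these differences in the results was not tested.

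Under NADA the probe sets of snoRNA host genes split into a set that was slightly higher and a set that was much lower, and the split ran through Gas5 and Snhg1 themselves. With the values as deposited 7 of the 12 rose, by 0.29 to 0.62 on the log2 scale, and 5 fell, with log2 fold changes of -2.04 to -1.32. Here rose and fell mean an adjusted p under 0.05 (limma, two-sided, Benjamini-Hochberg over 18975 probe sets) with the values as deposited. All 12 passed the filter on dim probe sets, and in all 12 the 3 NADA values did not overlap the 3 vehicle values. On this array 72.0% of tested probe sets were called (33.8% higher and 38.2% lower) and 75.0% did not overlap, so a call as such is common. A fall of at least 2-fold, a limit not set in advance, was less common, with 6.09% of tested probe sets called with one. The 5 that fell are all of that size, and they read only Gas5, Snhg1 and Snhg3. The members were chosen with earlier results of these data known, so this share is given as a description. With poly-A scaling the 7 higher probe sets lay between -0.22 and 0.11 and none was called (adjusted p 0.0657 to 0.635), so their direction depends on the scaling, whereas the 5 lower ones lay between -2.54 and -1.83. That scaling calls 82.1% of all tested probe sets, 8.38% higher and 73.7% lower.

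**Figure D1:**
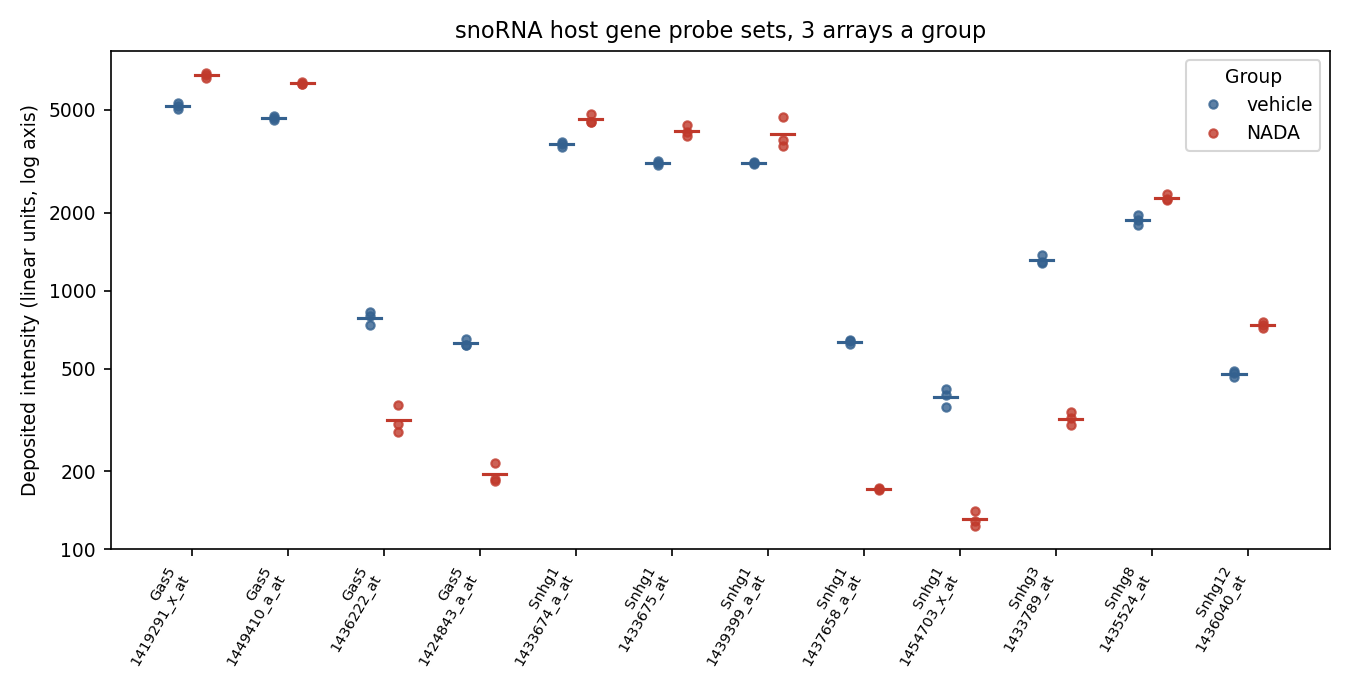
Deposited intensity (linear units on a log axis) of the 12 probe sets of Gas5, Snhg1, Snhg3, Snhg8 and Snhg12. Points are single arrays, blue for vehicle and red for NADA, and lines are the means of log2 values. The groups do not overlap in any probe set, and within Gas5 and Snhg1 some probe sets are higher and others lower in NADA with the values as deposited. The higher ones are at or below the vehicle level with poly-A scaling, except for Snhg12 (0.11).

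Gas5 was read by 4 probe sets, of which 2 rose and 2 fell. Probe set 1419291_x_at had intensities of 6844.5, 6633.1 and 6917.9 in NADA and 5028.2, 5192.3 and 5332.4 in vehicle. Probe set 1449410_a_at stood at 6394.0, 6265.3 and 6303.8 against 4582.8, 4713.2 and 4659.4. On both of these every NADA array was above every vehicle array, and the arrays of a group lay close together. Their log2 fold changes were 0.39 ± 0.03 (SE of the fit, 3 arrays per group; limma adjusted p = 4.22e-08), a 1.31-fold difference, and 0.44 ± 0.02 (adjusted p = 2.86e-09), a 1.36-fold difference. With poly-A scaling they turned to -0.12 and -0.065.

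The other 2 Gas5 probe sets were lower in NADA under either scaling. Probe set 1424843_a_at read 187.6, 183.7 and 214.8 in NADA and 614.8, 617.5 and 651.7 in vehicle. Probe set 1436222_at read 304.4, 284.8 and 361.1 against 737.7, 798.2 and 823.5. In both, NADA replicate 3 was the highest of the NADA arrays and still below the lowest vehicle array. The log2 fold change was -1.69 ± 0.06 for the first (limma adjusted p = 3.76e-11), which is 3.22-fold lower, and -1.32 ± 0.07 for the second (adjusted p = 2.99e-09), which is 2.49-fold lower. A further probe set, outside the rule because the annotation pairs it with Gas5 and Snord47 together, read 636.3, 678.5 and 694.1 in NADA and 1539.1, 1493.3 and 1504.2 in vehicle.

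Snhg1, which encloses as many snoRNA genes as Gas5, showed the same division with 3 probe sets that rose and 2 that fell. Probe set 1433674_a_at had intensities of 4494.4, 4470.6 and 4829.6 in NADA and 3680.8, 3744.8 and 3602.7 in vehicle. Probe set 1433675_at had 4105.0, 3960.1 and 4362.7 against 3108.6, 3067.8 and 3181.5. Every NADA array was again above every vehicle array. Probe set 1439399_a_at had 3625.2, 3809.2 and 4693.7 against 3081.5, 3147.6 and 3116.4, so here NADA replicate 3 stood well above both other NADA arrays. The log2 fold changes were 0.32 ± 0.03, 0.41 ± 0.04 and 0.37 ± 0.07 (limma adjusted p = 1.27e-06, 2.17e-07 and 3.57e-04), and poly-A scaling turned them to -0.18, -0.10 and -0.14. Without NADA replicate 3 the last was 0.25.

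The 2 lower Snhg1 probe sets fell under either scaling. Probe set 1437658_a_at read 169.3, 172.0 and 170.3 in NADA and 639.8, 643.2 and 624.6 in vehicle. Probe set 1454703_x_at read 128.3, 123.4 and 140.6 against 354.7, 416.2 and 396.0. The distance between the groups was many times the spread within either of them. The log2 fold change was -1.90 ± 0.04 for 1437658_a_at (limma adjusted p = 1.01e-12), 3.73-fold lower, and -1.57 ± 0.07 for 1454703_x_at (adjusted p = 2.46e-10), 2.97-fold lower.

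**Figure D2:**
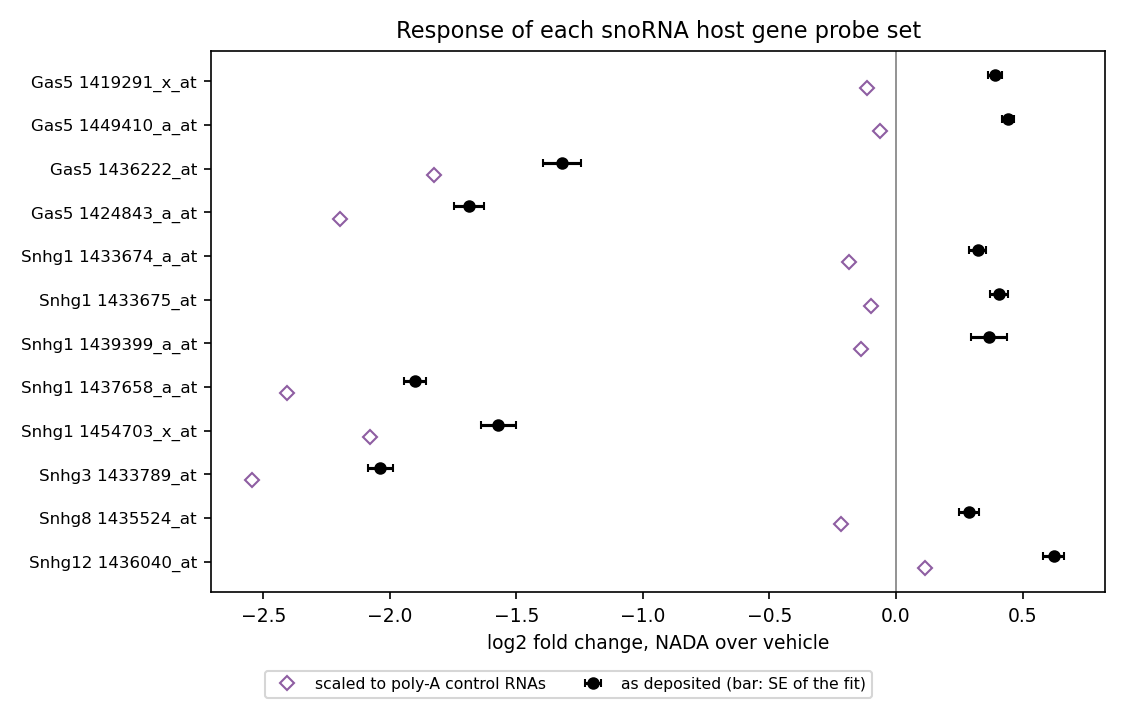
Log2 fold change of NADA over vehicle for each of the 12 probe sets. Black points are the values as deposited with their standard error (n = 3 arrays in each group), and open diamonds the values with poly-A scaling. The 5 probe sets that fell stay below -1.8 with that scaling, while the 7 that rose move to between -0.22 and 0.11.

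The unequal response of probe sets of 1 gene can be read within each array, where no scaling of whole arrays can alter it. On the log2 scale Gas5 1424843_a_at minus 1419291_x_at was -5.19, -5.17 and -5.01 in NADA and -3.03, -3.07 and -3.03 in vehicle, a change of -2.08 ± 0.07 (SE). Gas5 1436222_at minus 1419291_x_at changed by -1.71 ± 0.09. For Snhg1 the difference 1437658_a_at minus 1433674_a_at was -4.73, -4.70 and -4.83 in NADA and -2.52, -2.54 and -2.53 in vehicle, a change of -2.22 ± 0.07, and 1454703_x_at minus 1433674_a_at changed by -1.89 ± 0.08. The groups were separate in these 4 pairs. The exact permutation test (two-sided) returned p = 0.1 for each, the least that 3 against 3 can give. A limma fit over all 8455 such pairs on the array, added after seeing the data, gave the 4 an adjusted p of 4.24e-07 to 4.19e-06. Such differences between probe sets are frequent, since 40.7% of pairs were called. Those of at least 1.5 on the log2 scale, a limit not set in advance, made up 0.438% of pairs. By size the Snhg1 pairs ranked 4 and 14 and the Gas5 pairs 7 and 21.

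The higher probe sets were not called different from the brightest one of their gene in the limma fit of pairs. Gas5 1449410_a_at minus 1419291_x_at changed by 0.05 ± 0.05 (limma adjusted p = 0.468), Snhg1 1433675_at minus 1433674_a_at by 0.09 ± 0.05 (adjusted p = 0.24) and Snhg1 1439399_a_at minus 1433674_a_at by 0.04 ± 0.07 (adjusted p = 0.659). In the second of these pairs the 3 NADA values nonetheless lay above the 3 vehicle values. The lower probe sets did not fall by equal amounts. Gas5 1424843_a_at minus 1436222_at changed by -0.37 and Snhg1 1454703_x_at minus 1437658_a_at by 0.33, both without overlap of the groups (two-sided exact permutation p = 0.1, the smallest possible). Among 4858 genes with several tested probe sets 241 (4.96%) were called in both directions, and among the 870 genes with at least 4 tested probe sets 98 (11.3%) were. The spread between the highest and the lowest log2 fold change tends to widen with the number of probe sets, of which most of the 4858 genes had fewer than 4. It was 2.31 in Snhg1 and 2.13 in Gas5, ranks 5 and 7 of the 4858 genes, against a median of 0.25 over all of them. The exons, introns or transcript ends that these probe sets bind are not given in the sources used here. Beside the change of about 2 in the probe set pairs, the 3' to 5' difference of Actb changed by 0.40 and that of Gapdh by 0.15, and the part of RNA integrity or labelling in the result was not tested.

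**Figure D3:**
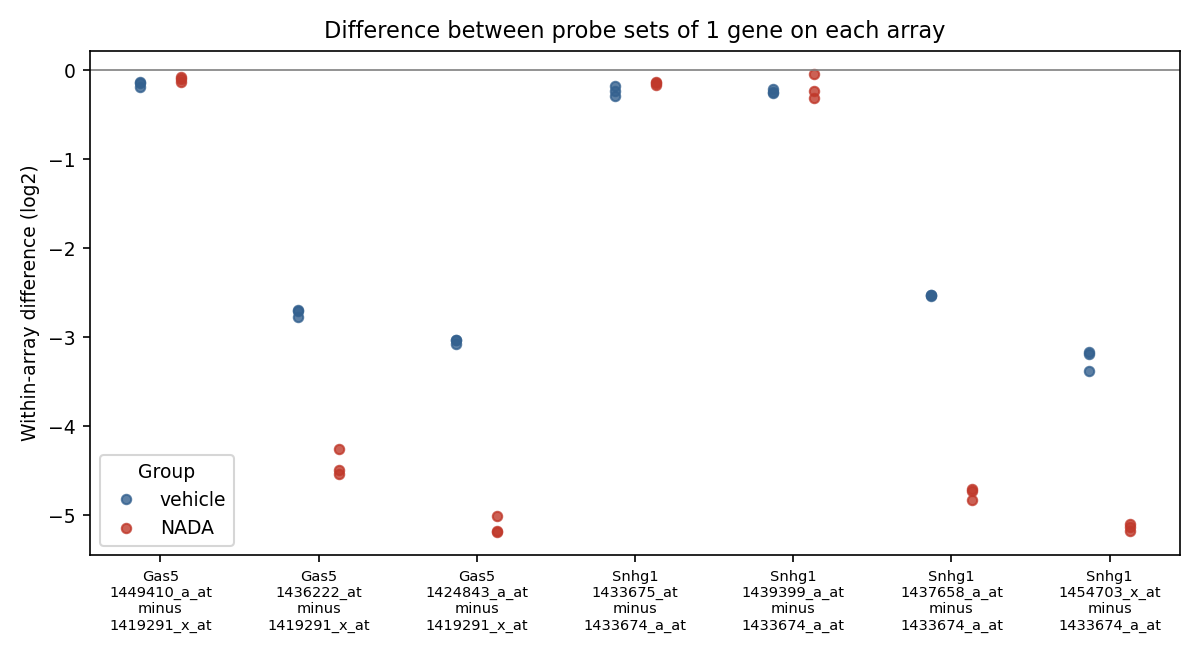
Difference in log2 intensity between a probe set of Gas5 or Snhg1 and the brightest probe set of the same gene, on each array. Points are single arrays, blue for vehicle and red for NADA. In 3 pairs the difference stays between -0.31 and -0.04 in both groups, and in 4 pairs it changes by -2.22 to -1.71 with NADA.

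Snhg3, host of the H/ACA snoRNAs Snora73a and Snora73b, had the lowest log2 fold change of the 12. Its 1 probe set read 301.7, 338.2 and 320.5 in NADA and 1369.3, 1286.3 and 1283.3 in vehicle. All NADA arrays were far below all vehicle arrays, with little spread in either group. The log2 fold change was -2.04 ± 0.05 (limma adjusted p = 1.30e-12), 4.1-fold lower, and -2.54 with poly-A scaling. With 1 probe set there is no second reading of the gene.

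Snhg8 and Snhg12 rose with the values as deposited, and with poly-A scaling Snhg8 turned to -0.22 and Snhg12 stood at 0.11, neither of them called. Snhg8, host of Snora24, had intensities of 2251.0, 2247.9 and 2361.2 in NADA and 1786.8, 1963.2 and 1871.3 in vehicle, a log2 fold change of 0.29 ± 0.04 (limma adjusted p = 1.49e-05). A probe set paired with Snhg8 and Snora24 together read 6899.7, 6740.1 and 6640.9 against 5585.2, 5595.7 and 5674.1. Snhg12 had 735.9, 756.6 and 714.1 against 462.9, 489.0 and 481.8, a log2 fold change of 0.62 ± 0.04 (adjusted p = 1.64e-08) and the highest of the 12. The groups were separate on each of these probe sets.

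Differences between host genes, taken within each array from the brightest probe set of each gene, set Snhg3 apart from the other 4 and Snhg12 slightly above Gas5, Snhg1 and Snhg8. For Gas5 and Snhg1 this depends on the probe set. Their lower probe sets had log2 fold changes of -1.90 to -1.32, against -2.04 for the 1 probe set of Snhg3. The change of Snhg3 minus Snhg8 was -2.33 and of Snhg3 minus Snhg12 -2.66 on the log2 scale, and Gas5 and Snhg1 exceeded Snhg3 by 2.43 and 2.36. The change of Gas5 minus Snhg12 was -0.23, of Snhg1 minus Snhg12 -0.30 and of Snhg8 minus Snhg12 -0.33. In each of these 7 differences the groups did not overlap (two-sided exact permutation p = 0.1, the smallest possible). Gas5 exceeded Snhg8 by 0.10 without overlap (exact p = 0.1), and Snhg1 could not be told from Gas5 (difference 0.07, exact p = 0.2) or Snhg8 (0.03, exact p = 0.4) beyond the spread of the arrays. In 8 of the 12 probe sets NADA replicate 3 was the highest NADA array, as it was in 25.4% of all tested probe sets. The poly-A controls of that array averaged 7.82 on the log2 scale, against 8.15 and 8.10 on the other NADA arrays.

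Genes listed as TOP mRNAs were nearly level between the groups with the values as deposited. The list was drawn up from gene symbols, paralogs such as Rps27l included, and the starts of its genes were not checked for a pyrimidine tract. Of 57 tested genes of this list, mostly ribosomal proteins and elongation factors, 20 rose, 16 fell and 21 were not called, with a median log2 fold change of 0.03. Over all 114 tested probe sets of these genes 36 rose and 36 fell, and 7 of the genes had probe sets called in both directions. Over all 10520 genes tested (1 brightest probe set a gene) 72.7% were called, 35.4% higher and 37.3% lower, with a median of 0.01. Set against the median of the TOP list on the same array, Gas5 changed by 0.36, Snhg1 by 0.29, Snhg8 by 0.25 and Snhg12 by 0.59, and Snhg3 by -2.07. In all 5 the groups were separate, with a two-sided exact permutation p of 0.1, the smallest possible. For Gas5 the per-array difference was -0.71, -0.76 and -0.68 in NADA and -1.13, -1.09 and -1.02 in vehicle. These values hold for the brightest probe set of each gene and are not altered by scaling whole arrays. Relative to the same median the lower Gas5 probe sets changed by -1.35 (1436222_at) and -1.72 (1424843_a_at) and the lower Snhg1 probe sets by -1.93 (1437658_a_at) and -1.60 (1454703_x_at). Rpl12 (-1.54 ± 0.05), Rps25 (-0.79), Eef1d (-0.55) and Rps27l (-0.41) had the smallest p of the TOP list. The Rpl12 value comes from a probe set that averaged 184.0 in NADA and 536.3 in vehicle. Most genes of the list were far brighter, with a list median of 13.4 to 13.46 on the log2 scale over the arrays. Whether the Rpl12 probe set reads the mature mRNA was not tested.

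Other noncoding snoRNA hosts mostly fell. Of 12 on the array 10 passed the filter, and by the brightest probe set 7 fell, 1 rose and 2 were not called, with a median of -0.22 (-0.73 with poly-A scaling). Over all genes tested 37.3% were called lower. The 7 falls included changes as small as -0.10 and -0.12 (limma adjusted p = 0.0293 and 0.0461). Zfas1, whose introns hold C/D snoRNAs, rose by 0.51 ± 0.03, from 2811.6, 2719.2 and 2697.7 in vehicle to 3914.9, 3918.5 and 3925.9 in NADA, and stood at 0.008 with that scaling. Snhg5 read 1011.7, 950.2 and 1007.5 in NADA against 1770.8, 1718.1 and 1702.2 in vehicle (-0.81 ± 0.04). Dancr (-0.79 ± 0.05) and Snhg4 (-0.66 ± 0.04) fell as well. Snhg16, chosen after its values were seen, had probe sets that fell by unequal amounts. Probe set 1436677_at of Snhg16 had a log2 fold change of -1.40 ± 0.06 and 1453344_at one of -0.12 ± 0.05.

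Protein-coding genes that also carry snoRNAs were lower in larger number than higher. Among 20 tested 12 fell, 3 rose and 5 were not called (median -0.40, and -0.91 with poly-A scaling). The box C/D core protein gene Nop56, the pseudouridine synthase gene Dkc1 (-1.48 ± 0.04), the ribosome assembly gene Wdr43 (-1.35 ± 0.04) and Rpl12 had the smallest p. Rpl12 was read here by the same probe set as in the TOP list, and other genes stand in both lists too. Hspa8, the constitutive HSP70 chaperone and host of U14 snoRNAs, was 1 of the 3 that rose (0.45, and -0.05 with that scaling), a gene named after its values were seen.

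Transcripts for the proteins that bind the snoRNAs were lower with the values as deposited. All 7 tested box C/D and H/ACA core genes were called lower (median -1.39, and -1.90 with poly-A scaling). Nop56, Nop58 and Dkc1 were counted in the protein-coding host list as well, by the same probe sets. Gar1, an H/ACA core protein, read 696.6 on average in NADA and 1825 in vehicle (-1.39 ± 0.03), and Nop56 (-1.77), Nhp2 (-1.44) and Dkc1 completed the 4 with the smallest p. Of 10 assembly factors 9 fell and 1 was not called (median -0.89), led by Nolc1 (-2.37), the AAA+ ATPase genes Ruvbl1 (-1.10) and Ruvbl2 (-1.19), and Znhit6 (-0.95). Among 10 genes of intron debranching and snoRNA end trimming 7 fell, 1 rose and 2 were not called (median -0.47). Dbr1, the lariat debranching enzyme that opens the introns in which snoRNAs lie, fell from 644.9 to 286.4 (-1.17 ± 0.05). The exosome nucleases Dis3 (-1.51 ± 0.05) and Exosc10 (-0.50) and the exosome cofactor Mphosph6 (-0.90) fell too. Xrn1, the cytoplasmic 5' to 3' exonuclease, was the 1 that rose (0.56 ± 0.07, adjusted p = 6.19e-06, limma), and stood at 0.05 with that scaling.

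Genes of nonsense-mediated decay, the pathway known to remove spliced Gas5 RNA, moved in both directions. So did the genes tested as a whole, of which 37.3% were lower and 35.4% higher. Of 13 tested in this list 7 fell, 4 rose and 2 were not called, with a median of -0.15 (-0.66 with poly-A scaling). Over their 28 tested probe sets 6 rose and 19 fell, and 1 gene had probe sets called in both directions. The translation release factor genes Gspt1 (-0.99 ± 0.03) and Etf1 (-0.57 ± 0.05) and the exon junction gene Rbm8a (-0.53 ± 0.03) fell, whereas Upf2 rose from 570.1 to 1040 (0.87 ± 0.04, and 0.36 with that scaling). The central helicase gene Upf1 had a log2 fold change of -0.15 ± 0.07 (limma adjusted p = 0.0729). Of 9 mRNAs known as targets of this decay 3 rose, 5 fell and 1 was not called (median -0.17). The stress genes Ddit3 (2.67 ± 0.05) and Gadd45a rose, and the splicing factor genes Srsf2 (-0.78) and Srsf3 (-0.61) fell.

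Among 11 genes of mTORC1 and of TOP mRNA control 3 rose, 4 fell and 4 were not called, with a median of -0.05 (-0.56 with poly-A scaling). Larp1, whose protein binds the TOP start, fell from 1402 to 644 (-1.12 ± 0.04). Tsc1, an mTORC1 inhibitor, rose by 0.51, and the translation repressors Eif4ebp1 and Eif4ebp2 changed by 0.25 and -0.35. With that scaling Tsc1 stood at 0.002 and Eif4ebp1 turned to -0.25. In a list of other growth arrest-specific genes to which Pros1 (protein S, a relative of Gas6) had been added, 7 were tested, of which 1 rose, 1 fell and 5 were not called (median 0.09, and -0.42 with that scaling). Gas2 fell by 0.70 on the log2 scale and Pros1 was the 1 that rose (0.24, and -0.27 with that scaling), while Gas2l3 (0.11) and Gas8 (0.11) were not called. Among 8 genes of the glucocorticoid receptor and its targets 6 rose and 2 fell (median 0.32, turning to -0.18 with that scaling). The immunophilin genes Fkbp5 (-1.19) and Fkbp4 (-1.04) fell, and Klf9 (1.04, and 0.53 with that scaling) and the phosphatase gene Dusp1 (0.71, and 0.20) rose.

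**Figure D4:**
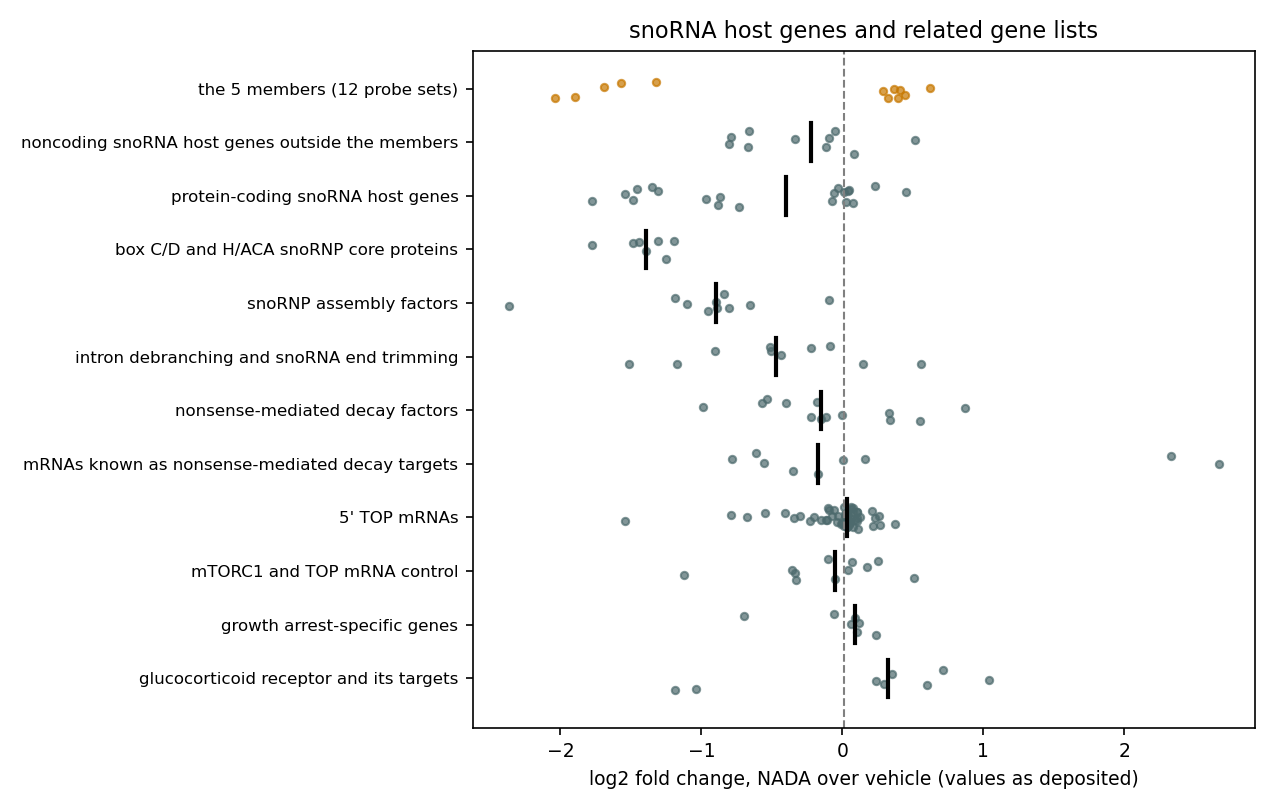
Log2 fold change of NADA over vehicle, values as deposited, for the 12 probe sets of the 5 host genes (orange) and for the genes of each related list (grey, 1 probe set a gene). Black lines are list medians and the dashed line is the median of all genes tested. The host gene probe sets form a cluster between 0.29 and 0.62 and another between -2.04 and -1.32, and the snoRNP core genes lie with a median of -1.39. Poly-A scaling moves every point by -0.51, which places the medians of the TOP, growth arrest-specific and glucocorticoid receptor lists below 0 as well.

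Genes beside the hosts did not follow them in a uniform way. Slc3a2, the heavy chain of CD98 amino acid transporters and the gene before Snhg1, read 4095.1, 4216.6 and 4125.5 in NADA and 1413.9, 1379.8 and 1332.4 in vehicle (1.59 ± 0.03, and 1.08 with poly-A scaling). Wdr74, a ribosome assembly gene on the other side of Snhg1, read 411.2, 438.8 and 397.6 against 1066.5, 1067.4 and 1060.7 (-1.36 ± 0.04). The groups were widely separate in both genes, in opposite directions. Rcc1, the exchange factor of the GTPase Ran, lies on the lower-coordinate side of Snhg3, a gene of the - strand. Rcc1 read 196.7, 174.1 and 196.3 against 646.4, 657.5 and 641.1 (-1.78 ± 0.05). Phactr4, on the higher-coordinate side of Snhg3, rose by 0.15 ± 0.05 and turned to -0.36 under that scaling. Beside Snhg12, Taf12, a subunit of TFIID, changed by -0.80 ± 0.07 and Trnau1ap, a tRNA selenocysteine factor, by -0.78 ± 0.06. Zbtb37, which overlaps the Gas5 gene at its start in the RefSeq table, rose by 0.48 ± 0.10 near the dim limit and stood at -0.03 with that scaling, and Cenpl, a centromere gene, changed by -0.12. Prss12 beside Snhg8 was not called (-0.07, adjusted p = 0.516, limma).

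The genes most like each host over the 6 arrays were listed by Pearson correlation of log2 intensity, which here follows mainly the step between the groups and is given as a description. For Gas5 (brightest probe set) they were Cebpb (0.9992), a bZIP factor gene that rose by 0.44, the splicing kinase gene Clk2 (0.9988) and Rnf6 (0.9982). For Snhg1 they were the prefoldin subunit gene Pfdn5 (0.9999), Adamts10 (0.9986) and the RAS exchange factor gene Sos2 (0.9985). Snhg3 was closest to 2010204K13Rik (0.9999), the GTPase gene Gpn1 (0.9998) and the DNA polymerase delta subunit gene Pold2 (0.9998, log2 fold change -1.75), all of which fell. Snhg8 was closest to Lce1i (0.9972), Nsmaf (0.9964) and Gnb4 (0.9946), and Snhg12 to the exchange factor gene Vav1 (0.9999), Fndc3a (0.9997) and the autophagy gene Atg14 (0.9994).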

How the data were processed

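RNA of 6 samples was labelled with biotin and hybridised to Affymetrix Mouse Genome 430 2.0 arrays, per the labels. The deposited values are linear intensities, 1 per probe set and array. Per the submitters' processing notes, MAS5 and RMA were the tools, with no role given. The authors' values were used as deposited after log2. No detection calls were used here. Of 45101 probe sets, 64 controls were left out, and 34945 of the rest had 1 gene, 932 several and 9160 none in the annotation table. Those with 1 gene and a mean intensity of at least 39.01 (the median of all) were tested, 18975 in all.

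The 2 groups were compared in limma 3.58.1 (lmFit, eBayes with intensity trend, group as the only term, two-sided) in R 4.3.3, with Benjamini-Hochberg adjustment over all tested probe sets and a threshold of 0.05. Lists use the brightest probe set of each gene and are described by counts and medians. Exact permutation tests used scipy 1.17.1, and plots matplotlib 3.10.9. The fitting steps were tested on simulated data. Scaling to poly-A control RNAs used 27 probe sets. In that fit the shared error of the scaling enters every probe set, so its p-values are less reliable. With 3 arrays per group their number limits the precision.

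Named genes are the members, the 3 most correlated genes of each, up to 4 of each list by smallest p, the nearest tested neighbours, and Xrn1, Upf1, Slc3a2 and Rcc1. Hspa8 and Snhg16 fall outside this rule and were named after their values were seen. Nop58 also falls outside it and is named only as a gene shared between lists. The comparisons of lower probe sets with each other and with the TOP median were added after seeing the data. The members and lists were chosen with earlier results of these data known. Alternatives covered normalization, low values, the dim filter, probe set choice, variance model, replicate block and leaving out each array.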

Additional observations from a re-analysis of the deposited data

How the results depend on the processing

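The 5 lower and 7 higher member probe sets were called alike under quantile normalization, median centring, adding 32 or setting a floor of 50 ahead of log2, a dim filter at the 70th percentile or none, weighting of arrays, a fit lacking the intensity trend, and without any 1 array. Scaled to the poly-A control RNAs 0 were called higher (limma), and the log2 fold changes were -0.12 and -0.065 for Gas5 (1419291_x_at, 1449410_a_at), -0.18, -0.10 and -0.14 for Snhg1 (1433674_a_at, 1433675_at, 1439399_a_at), -0.22 for Snhg8 and 0.11 for Snhg12. Here the scaling lowers every value by construction. With the brightest probe set a gene, which leaves fewer features, 1 was lower, 4 higher and 7731 of all were called, against 13664. Against the TOP median, quantile normalization gave 0.42 for Gas5, 0.34 for Snhg8 and 0.69 for Snhg12, and 32 added before log2 gave -1.97 for Snhg3. The cause was not tested. The added limma test of probe set pairs called -1.71 and -2.08 for Gas5 and -2.22 and -1.89 for Snhg1, which the exact test could not. Leaving out 1 array, Snhg1 1439399_a_at minus 1433674_a_at ranged from -0.032 to 0.10, below 0 without NADA replicate 3. With x and s type probe sets left out, 4 member probe sets were called lower and 6 higher. With a replicate block 13703 probe sets and the same numbers of member probe sets were called. Same-numbered arrays deviated together only weakly (correlations 0.21, -0.10 and 0.03), so the numbers were not taken as pairs.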
